A study of Mus musculus with 7 samples.

Results

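The G allele of PAXIP1-AS1 was compared with an empty vector in the prefrontal cortex (PFC) of female mice, in 5 of the 7 RNA-seq libraries of the series. The 2 Alt libraries came from C57BL/6 wild-type mice whose PFC was injected on both sides with a recombinant adeno-associated virus (AAV) carrying the full-length human PAXIP1-AS1 cDNA with the alternative G allele of rs112651172. The 3 Ctr libraries came from mice of the same strain and sex that received the empty AAV vector. The libraries were chosen by these labels alone, and the 2 remaining libraries, from mice given the C allele (Ref), took part in the choice of genes tested, in the scaling and in the estimate of the spread. The synapsin promoter, which is active in neurons, drove a green fluorescent protein in Alt, Ref and Ctr mice alike, so that injection, virus and reporter were common to both groups. The age of the mice, the time from injection to dissection and the share of cells that took up the virus were not given in the sources used here. The mouse has no sequence homologous to this human transcript, and the transgene itself was not analysed here.

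PAXIP1-AS1 is a long non-coding RNA transcribed next to PAXIP1, a gene of the DNA damage response and of histone methylation. Long non-coding RNAs that stay in the nucleus can recruit or hold back transcription factors and chromatin proteins, and can thereby alter genes far from their own locus. The PFC is a cortical area of working memory and emotional control, where excitatory pyramidal neurons, several classes of inhibitory interneurons, glia and blood vessels lie together, so that each library is an average over all of them. In such bulk tissue, fewer cells of a type and less RNA per cell cannot be told apart.

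The libraries held 16655697 and 18673575 counts in Alt and 19382848 to 20750857 in Ctr, and mitochondrial genes took 12.2% to 15.9% of them. Counts are given as CPM, scaled to a common library size with TMM factors, and 17254 of 55416 genes had enough counts to be tested. The 2 Alt libraries differed more from each other (chi-square per degree of freedom of 62.38 over genes) than any 2 Ctr libraries did (19.68 to 26.09), and Alt replicate 1 stood further from Ctr than Alt replicate 2. The defining genes of cortical tissue were abundant in every library, among them Slc17a7, the vesicular glutamate transporter of cortical pyramidal neurons (1309, 1207 and 1127 CPM in Ctr and 1559.6 and 1468 CPM in Alt). Which member of a list was its most abundant was decided by TPM, which is a level per length. Nothing in the labels says that the libraries of a group came from separate animals or pools, so p-values measure the spread between these libraries, which may be technical.

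A gene was called higher or lower in Alt when both Alt libraries lay beyond all 3 Ctr libraries and the unadjusted p of edgeR's quasi-likelihood test was under 0.05. By this rule 1474 genes were higher (8.54% of genes tested) and 1598 lower (9.26%), while non-overlap alone, without regard to p, held for 16.8% of genes above and 18.1% below. At least a 2-fold difference was reached by 289 of the higher genes (1.67%) and 502 of the lower ones (2.91%). After Benjamini-Hochberg adjustment over all genes tested, edgeR's quasi-likelihood test gave 0 genes at an FDR of 0.05, against 3414 at an unadjusted p of 0.05 (19.8%), and DESeq2's Wald test gave 1123 at an adjusted p of 0.05. At an FDR of 0.2 the quasi-likelihood test gave 2501 genes, but 0 when the Ref libraries were left out, 0 with a replicate block, 0 without Ctr replicate 1 and 4 without Alt replicate 1. An exact rank test of 2 libraries against 3 cannot give a two-sided p below 0.2. Single genes are therefore described here by their libraries and by the model's estimates. The counts rested on single libraries: without Alt replicate 1 they were 680 higher and 817 lower, without Alt replicate 2 they were 2695 and 3546, and without Ctr replicate 1 they were 945 and 1006. Without the Ref libraries 16721 genes were tested, of which 1347 were higher and 1246 lower.

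Calls depended strongly on gene length, the summed exon length in bases that the table lists. Among the 1726 longest genes (9527 to 123179 bases) 606 were higher and 18 lower, whereas among the 1726 shortest (56 to 1324 bases) 39 were higher and 225 lower. Across the 17254 genes the Spearman correlation between log2 fold change and length was 0.33, and over the 14492 protein-coding genes it was 0.48. Genes share the same 5 libraries and are not independent replicates, so these are descriptions without a test. Both Alt libraries showed the slope, Alt replicate 1 more steeply, and Ctr replicate 1 sloped the other way: in the longest bin the median log2 difference from the Ctr mean was 0.54 and 0.19 in the Alt libraries and -0.13, 0.08 and 0.07 in the Ctr libraries. The log2 fold change was correlated with the genomic span of the gene by 0.28, and span with length by 0.70. Whether RNA quality, library preparation or the transcript itself lay behind the slope was not tested.

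**Figure D1:**
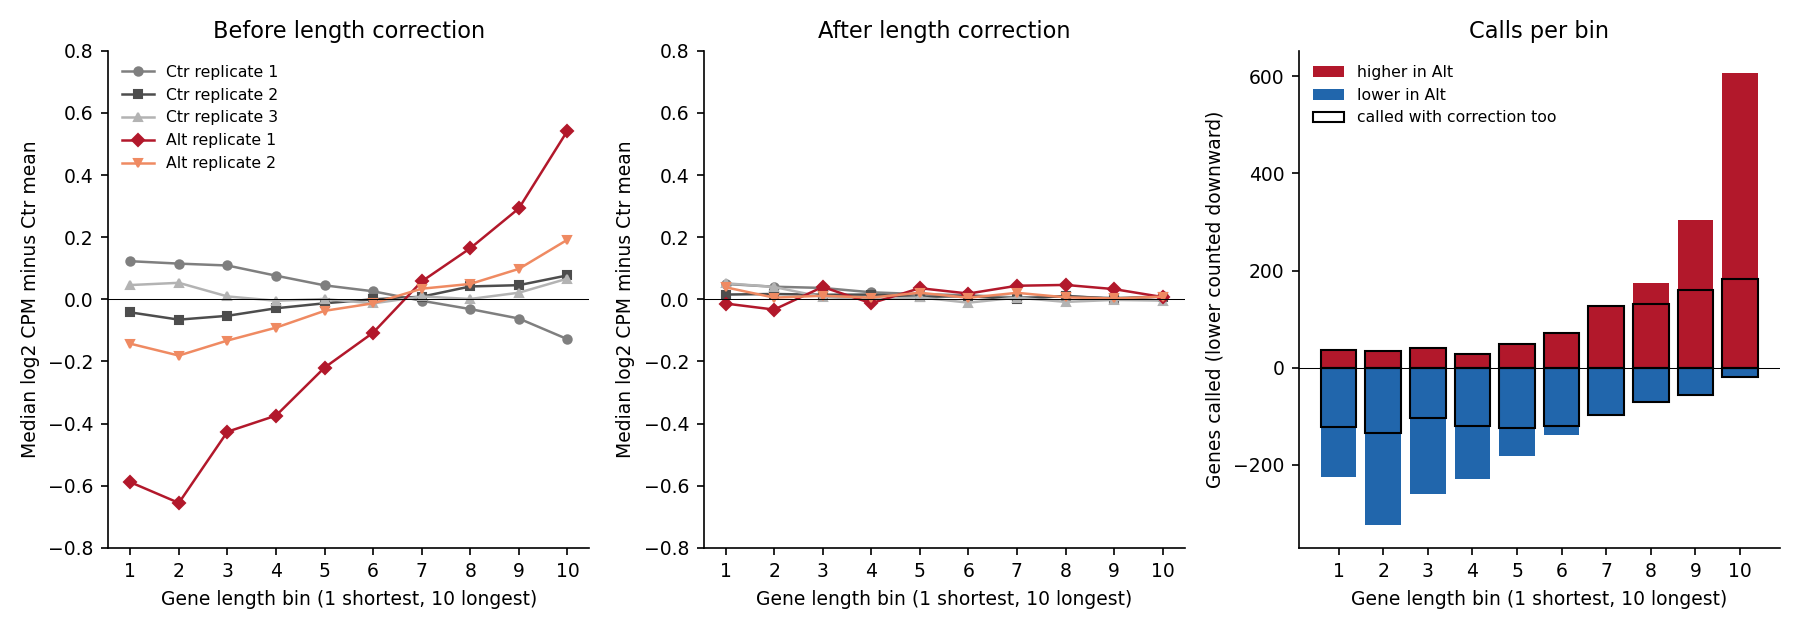
Left and middle, median log2 CPM minus the Ctr mean for the 5 libraries in 10 bins of equal gene number, from the shortest to the longest genes, before and after a length correction. Right, number of genes called higher (upward, red) or lower (downward, blue) in each bin, with black outlines for those also called after the correction. Alt replicate 1 runs from -0.59 in the shortest bin to 0.54 in the longest before correction, and all libraries lie near 0 in every bin after it.

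Each comparison was therefore made again after a loess curve on log2 length had been removed from every library. The correlation with length was then -0.02, and 1181 genes were higher (6.84%) and 1284 lower (7.44%). Called in the same direction with and without this correction were 862 higher genes (5%) and 964 lower genes (5.59%). The single genes described first below were taken from these 1826, and in 1569 of the 1826 (85.9%) Alt replicate 1 lay further from the Ctr mean than Alt replicate 2. Of the 1826, DESeq2 without length correction gave 840 an adjusted p under 0.05, 450 higher and 390 lower, and gave no adjusted p to 318. In the length-corrected values a change that truly follows length would also be removed.

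The genes described next had the smallest p-values among protein-coding genes on the higher side. Nipbl, which loads cohesin onto chromosomes (chromosome 15, 8320101 to 8473947 as the deposited table lists it), had 59.1, 67.9 and 69.1 CPM in the Ctr libraries and 139.6 and 112 CPM in the Alt libraries. Its 2 Alt values lay well clear of the Ctr range, and the log2 fold change was 0.95 (standard error 0.16, FDR 0.12 in edgeR's quasi-likelihood test) and 0.71 after length correction. Vwf, the clotting factor made by endothelial cells, had 33.8, 44.2 and 47.9 CPM in Ctr and 98.1 and 82.8 CPM in Alt, a log2 fold change of 1.11 (0.67 corrected). Epas1, the hypoxia-inducible factor 2 alpha of vessels and astrocytes, had 208, 237 and 236 CPM in Ctr and 453 and 369.8 CPM in Alt, with 0.86 (0.82 corrected). For both genes the lower Alt library was above the highest Ctr library by more than the whole Ctr range.

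Others of this group have known roles in neurons. Farp1, an exchange factor for small GTPases that acts at dendrites and synapses, had 58.4, 60.1 and 81.7 CPM in Ctr and 160.2 and 116 CPM in Alt (1.05, corrected 1.02). Nbea (neurobeachin), needed for the transport of receptors to synapses, had 235, 274 and 305 CPM in Ctr and 633 and 431 CPM in Alt, and its log2 fold change of 0.97 was 0.26 with length corrected, at a length of 31361 bases. Adcy9, an adenylyl cyclase, had 47.5, 40.5 and 53.9 CPM in Ctr and 135 and 75.1 CPM in Alt and kept 1.15 of 1.15. Syn3, the third synapsin of synaptic vesicles, had 8.49, 8.52 and 11.1 CPM in Ctr and 33.9 and 17.2 CPM in Alt, and Cdh4, the retinal cadherin, 22.1, 18.7 and 26.9 CPM in Ctr and 55.0 and 39.9 CPM in Alt, with log2 fold changes of 1.45 and 1.07 (1.07 and 0.93 corrected). In all of these Alt replicate 1 was the higher of the 2 Alt libraries. Omitting Alt replicate 1 gave a log2 fold change of 0.67 for Adcy9 and 0.88 for Syn3.

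Ptprb, the receptor phosphatase of vascular endothelium, had 67.5, 91.1 and 104 CPM in Ctr and 223 and 155 CPM in Alt, and Birc6, a giant ubiquitin ligase that restrains cell death, 116, 135 and 155 CPM in Ctr and 382 and 213 CPM in Alt, with log2 fold changes of 1.11 and 1.13 (0.73 and 0.46 corrected). The next genes had the largest log2 fold changes among those with a mean of at least 5 CPM over the 5 libraries. Col4a5, a collagen of basement membranes, had 2.78, 2.31 and 3.76 CPM in Ctr and 11.4 and 7.19 CPM in Alt, a log2 fold change of 1.65 (standard error 0.35; 1.54 corrected). Gucy1a2, a subunit of the nitric oxide receptor guanylate cyclase, had 9.04, 9.30 and 17.3 CPM in Ctr and 50.6 and 20.7 CPM in Alt, and Xkr4, of the XK family of membrane proteins, 20.6, 40.5 and 50.4 CPM in Ctr and 161 and 61.6 CPM in Alt, with log2 fold changes of 1.58 and 1.58 (1.47 and 1.51 corrected). In Xkr4, in Gucy1a2 and in D130040H23Rik (1.69, 3.05 and 3.99 CPM in Ctr and 12.03 and 5.47 CPM in Alt) the second Alt library was closer to Ctr than to Alt replicate 1. Sytl5, a synaptotagmin-like partner of Rab27, ran from 0.397, 1.87 and 3.95 CPM in Ctr to 15.8 and 4.63 CPM in Alt (2.29, corrected 2.69). With Alt replicate 1 left out the log2 fold change was 0.65 for Birc6, 0.80 for Gucy1a2, 0.73 for Xkr4, 0.91 for D130040H23Rik and 1.15 for Sytl5, and the call was lost for D130040H23Rik and Sytl5.

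On the lower side the genes with the smallest p or the largest change had no single role in common. Psenen, the smallest subunit of gamma-secretase (chromosome 7), had 13.4, 10.1 and 11.4 CPM in Ctr and 1.82 and 3.68 CPM in Alt. Its log2 fold change was -2.07 (standard error 0.34, FDR 0.12 in edgeR's quasi-likelihood test) and -1.68 after length correction. Ctss, the lysosomal protease cathepsin S of microglia, had 79.7, 72.1 and 58.2 CPM in Ctr and 26.9 and 35.6 CPM in Alt (-1.16, corrected -0.74). Lag3, an immune checkpoint receptor, had 11.96, 17.8 and 15.8 CPM in Ctr and 1.496 and 5.24 CPM in Alt (-2.15, corrected -1.89). The Alt values of Ctss and Lag3 were separated from the lowest Ctr value by more than the difference between the 2 Alt libraries. Without Alt replicate 2 the log2 fold change was -3.34 for Lag3.

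Several of the others belong to the transcription and RNA machinery. Polr2g, a subunit of RNA polymerase II, had 30.1, 20.6 and 29.2 CPM in Ctr and 7.48 and 11.1 CPM in Alt (-1.52, corrected -1.10). Elob, elongin B of the elongation and ubiquitin ligase complexes, had 46.5, 34.2 and 43.8 CPM in Ctr and 16.7 and 19.6 CPM in Alt, and Sgf29, which reads methylated histone H3 for the SAGA complex, 6.85, 3.64 and 6.18 CPM in Ctr and 0.846 and 1.17 CPM in Alt, with log2 fold changes of -1.19 and -2.45 (-0.75 and -2.06 corrected). Mrgbp, of the NuA4 histone acetyltransferase, had 9.04, 5.51 and 7.94 CPM in Ctr and 1.69 and 2.57 CPM in Alt (-1.81, corrected -1.64). Snrpc, the U1 snRNP protein that helps recognize splice donor sites, had 9.73, 8.32 and 12.2 CPM in Ctr and 2.73 and 3.07 CPM in Alt, and at 6521 bases it is one of the longer genes of the group, and its log2 fold change of -1.79 became -1.88 with the correction. Snrpc and Eef1akmt1, which methylates a translation elongation factor (10.7, 7.38 and 8.41 CPM in Ctr and 2.73 and 2.51 CPM in Alt), had nearly equal values in the 2 Alt libraries.

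Rsrp1, an arginine and serine rich protein, had 139, 139 and 147 CPM in Ctr and 70.4 and 84.5 CPM in Alt, a log2 fold change of -0.87 (-0.68 corrected). Glt8d1, a glycosyltransferase, had 14.7, 19.0 and 17.5 CPM in Ctr and 6.50 and 7.86 CPM in Alt, and Dand5, an extracellular antagonist of Nodal and BMP ligands, 5.51, 5.02 and 5.53 CPM in Ctr and 0.455 and 1.28 CPM in Alt, with log2 fold changes of -1.24 and -2.60 (-1.06 and -2.27 corrected). Cops9, of the COP9 signalosome, had 10.2, 9.65 and 8.18 CPM in Ctr and 0.260 and 4.52 CPM in Alt (-1.94, corrected -1.66). For Cops9, Lag3 and Dand5 the value was lower in Alt replicate 1 than in Alt replicate 2. The 34 genes named by smallest p or largest change remained called without each of the 3 Ctr libraries in turn. They were chosen for extreme values on these same libraries, so this is largely fixed by the choice and adds no support. When Alt replicate 1 was omitted, the log2 fold change was -1.04 for Cops9. With Alt replicate 2 left out it was -5.13 for Cops9.

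**Figure D2:**
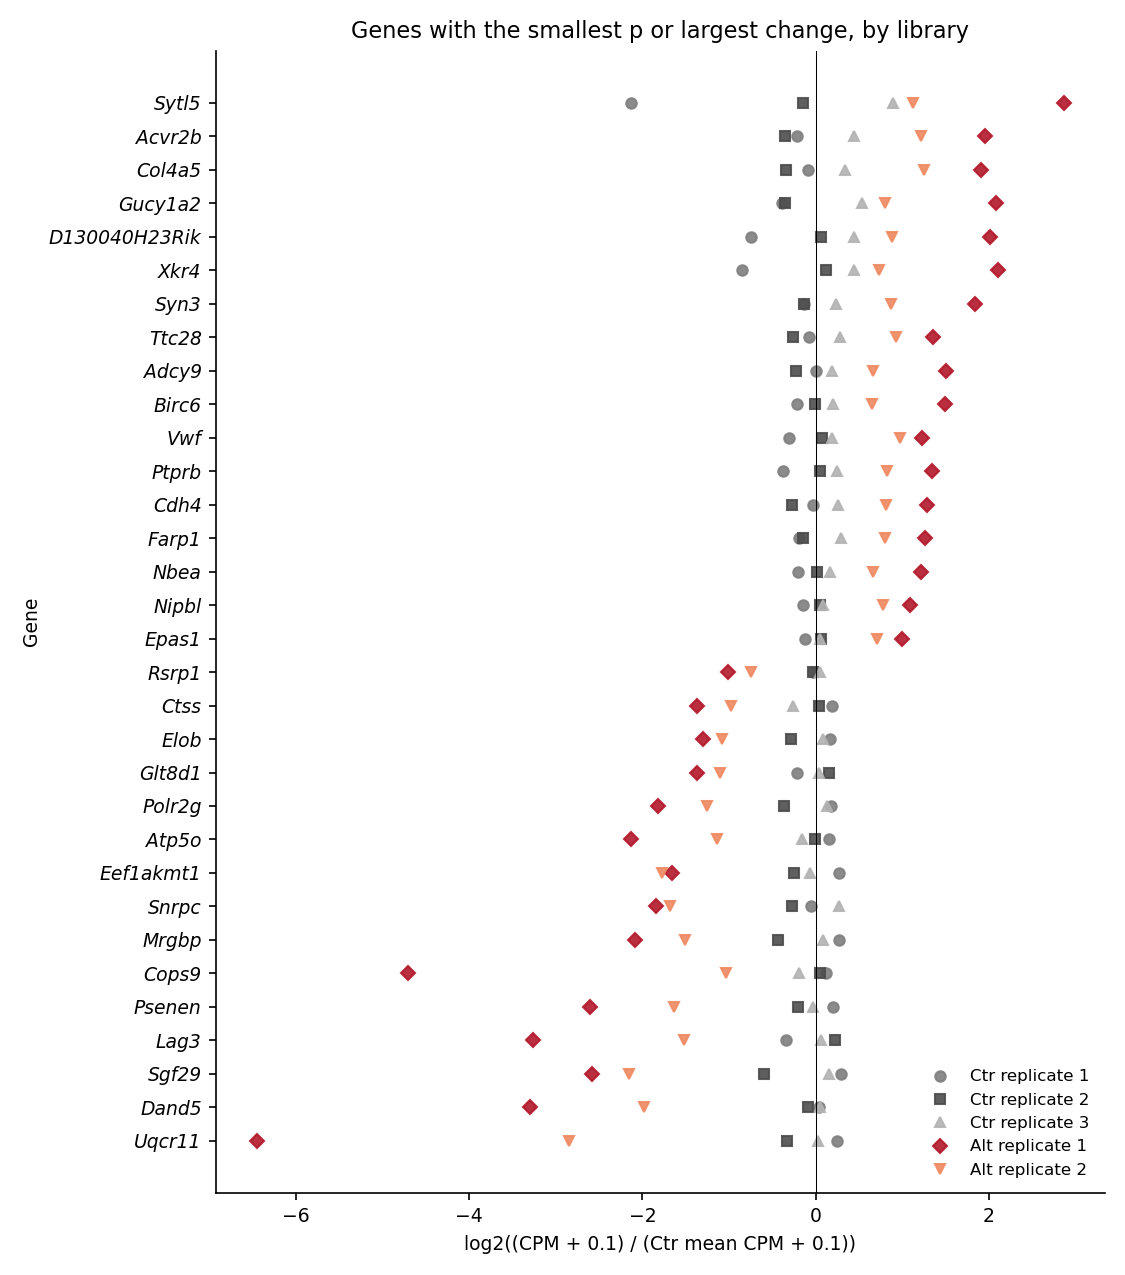
CPM of each library relative to the Ctr mean, on a log2 scale with 0.1 added to both, for 32 of the 34 protein-coding genes with the smallest p or the largest change; Alb, which is at or near 0 in Ctr, is among those left out. Grey symbols are the 3 Ctr libraries and red or orange ones the 2 Alt libraries, which lie on one side of all Ctr libraries for every gene drawn.

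Mitochondrial respiration had the largest share of lower genes among the 34 functional lists. The respiratory chain passes electrons from nutrients to oxygen through complexes built from nuclear and mitochondrial genes, and the ATP synthase uses the resulting proton gradient. Of the 82 nuclear genes tested for these complexes 53 were lower (64.6%, against 9.26% over all genes tested) and 0 higher. With the length correction too 37 of the 53 were lower, 45.1% of the list against 5.59% over all genes. The median log2 fold change was -0.80, or -0.48 with length corrected, against -0.03 and 0.00 over all genes tested. By library the median difference from the Ctr mean was -1.25 and -0.34 in the Alt libraries, with -0.13 to 0.19 in Ctr, and without Alt replicate 1 the median was -0.36, without Alt replicate 2 -1.29. Their median length was 1631 bases against 4051 over all genes tested.

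All complexes took part. Lower were 20 of 38 tested genes of complex I, 2 of 4 of complex II, 8 of 9 of complex III, 9 of 13 of complex IV and 13 of 17 of the ATP synthase, and their medians lay between -0.44 in complex II and -0.85 in complex IV. Uqcr11, a small subunit of complex III, had 10.3, 6.89 and 8.87 CPM in Ctr and 0 and 1.12 CPM in Alt, which are 207, 140 and 191 counts against 0 in Alt replicate 1 and 20 in Alt replicate 2. Atp5o, the stalk subunit that joins the 2 parts of the ATP synthase, had 33.0, 29.3 and 26.5 CPM in Ctr and 6.70 and 13.4 CPM in Alt, and Ndufa3 of complex I 7.84, 5.41 and 7.71 CPM in Ctr and 0.520 and 1.78 CPM in Alt. Atp5a1, the alpha subunit of the catalytic part and the most abundant member, had 637, 600.0 and 591 CPM in Ctr and 411 and 591 CPM in Alt, so that Alt replicate 2 lay within the Ctr range, and it was not called (log2 fold change -0.28, corrected -0.08).

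Of the 13 protein-coding genes of the mitochondrial genome 0 were lower and 2 were higher (15.4%, against 8.54% over all genes tested). Their median log2 fold change was 0.21. After length correction 8 of the 13 were higher and 0 lower, with a median of 0.58, and the median length of the 13 was 784 bases. mt-Nd5, a core subunit of complex I, had 11437, 14897 and 11526 CPM in Ctr and 26485 and 20952 CPM in Alt, and mt-Nd4l, another, 28.2, 29.98 and 32.3 CPM in Ctr and 74.1 and 54.9 CPM in Alt, both with clear gaps between the groups. mt-Co1, the catalytic subunit of complex IV, had 44919, 45856 and 41515 CPM in Ctr and 40922 and 52298 CPM in Alt and overlapped with Ctr, and it was called higher after the correction only (0.08, corrected 0.49). mt-Nd5 adjoins mt-Nd6 on the opposite strand and mt-Nd4l overlaps mt-Nd4, and since the strand setting of the counting was not given, reads of such neighbours may be shared. The median difference from the Ctr mean was -0.12 in the first Alt library and 0.53 in the second, and the median log2 fold change was -0.13 without Alt replicate 2.

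Lists of other mitochondrial and energy genes are read against 9.26% lower and 8.54% higher over all genes tested, and 5.59% and 5% in both settings. Of 48 assembly factors of the chain 12 were lower (25%, and 7 or 14.6% in both settings) and 0 higher, among them Coa3, needed for complex IV (30.3, 28.1 and 27.5 CPM in Ctr and 12.3 and 14.4 CPM in Alt), and Surf1 (21.3, 21.0 and 19.9 CPM in Ctr and 8.72 and 11.4 CPM in Alt), the gene mutated in a form of Leigh syndrome. Of 26 import genes 11 were lower (42.3%, and 8 or 30.8% in both settings), among them Timm10b (8.24, 3.89 and 5.02 CPM in Ctr and 0.130 and 1.62 CPM in Alt, with 2 and 29 counts in Alt), and 1 was higher, Tomm20, the receptor of the outer membrane (351, 396 and 361 CPM in Ctr and 499 and 441 CPM in Alt). Of 18 enzymes of the TCA cycle 5 were lower (27.8%, and 4 or 22.2% in both settings) and 0 higher, with Mdh2, mitochondrial malate dehydrogenase, at 209.8, 168 and 187 CPM in Ctr and 75.4 and 137 CPM in Alt. Glycolysis had 3 lower genes of 18 (16.7%), of which Ldha, lactate dehydrogenase A (295, 224 and 234 CPM in Ctr and 116 and 194 CPM in Alt), was the single one also called with the length correction, a share of 5.56% that is no larger than over all genes. Of 19 genes of the vacuolar ATPase, which acidifies lysosomes and synaptic vesicles, 6 were lower (31.6%, and 5 or 26.3% in both settings) and 0 higher, and Atp6v0b had 85.3, 75.4 and 75.2 CPM in Ctr and 29.3 and 49.2 CPM in Alt. In the absence of Alt replicate 1 the log2 fold change was 0.26 for Tomm20, -0.46 for Mdh2 and -0.37 for Ldha, and the call was lost for Tomm20 and Ldha. When Alt replicate 2 was omitted, it was -1.32 for Mdh2 and -1.12 for Ldha. Without Ctr replicate 1 the value was 0.31 for Tomm20, and the call was lost. Without Ctr replicate 3 the value was 0.33 for Tomm20, and the call was lost.

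Among genes of protein synthesis and turnover, lower calls outnumbered higher ones in each list. Over all genes tested 9.26% were lower, and 5.59% in both settings. All 82 genes tested for cytosolic ribosomal proteins had a negative log2 fold change. By the rule 43 were lower (52.4%), 15 of 33 of the small subunit and 28 of 49 of the large. Also lower with length corrected were 21 of the 43, or 25.6% of the 82 genes. Their median was -0.67 (-0.36 corrected and -0.34 and -1.13 without Alt replicates 1 and 2 in turn), at -1.10 and -0.33 in the Alt libraries and -0.12 to 0.16 in Ctr. Rpl27a had 119.9, 87.1 and 113 CPM in Ctr and 52.7 and 69.4 CPM in Alt and Rps4x 232, 215 and 189 CPM in Ctr and 104 and 154 CPM in Alt, while Rplp1, the most abundant, had 363, 336 and 408 CPM in Ctr and 158 and 339 CPM in Alt and overlapped with Ctr. Ribosomal protein genes have many processed pseudogenes, so counts of single members are uncertain where reads were shared. Leaving out Alt replicate 1 gave a log2 fold change of -0.46 for Rps4x.

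Mitochondrial ribosomal proteins had 28 lower genes of 77 (36.4%, against 9.26% over all genes tested) and 0 higher. Lower in both settings were 19 (24.7%, against 5.59%). The median was -0.64, -0.43 corrected and -0.38 and -1.05 without Alt replicates 1 and 2 in turn. Mrps24 had 16.0, 14.4 and 11.5 CPM in Ctr and 4.42 and 7.53 CPM in Alt and Mrpl28 18.3, 15.4 and 14.1 CPM in Ctr and 5.98 and 9.59 CPM in Alt. The proteasome, which degrades ubiquitin-tagged proteins, had 20 lower genes of 38 (52.6%) and 0 higher, with 11 in both settings (28.9%). Its median was -0.52, -0.29 corrected and -0.29 and -0.78 without Alt replicates 1 and 2 in turn. Psmd9, an assembly chaperone of the regulatory particle, had 17.8, 15.4 and 12.2 CPM in Ctr and 5.72 and 7.36 CPM in Alt at a length of 7248 bases (-1.21, corrected -1.33). Of 14 genes of the CCT chaperonin and prefoldin, which fold actin and tubulin, 4 were lower (28.6%, and 3 or 21.4% in both settings). Pfdn1 had 21.6, 10.4 and 12.5 CPM in Ctr and 3.77 and 7.03 CPM in Alt. Of 63 heat shock and DnaJ genes 11 were lower (17.5%) and 4 higher, 6 (9.52%, against 5.59% over all genes tested) and 2 in both settings, and the most abundant, Hsp90ab1, was not called (1381, 1173 and 1303 CPM in Ctr and 912 and 1187 CPM in Alt).

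In the RNA machinery 10 of 32 snRNP and Lsm genes of the spliceosome were lower (31.2%, against 9.26% over all genes tested). Lower in both settings were 5 (15.6%, against 5.59%). The 1 higher gene (3.12%, against 8.54%), also in both settings, was the long helicase gene Snrnp200. It had 117, 140.2 and 139 CPM in Ctr and 191 and 175 CPM in Alt. RNA polymerase II had 1 higher and 5 lower genes among 13 (7.69% and 38.5%), and 1 and 3 in both settings (7.69% and 23.1%). Polr2a, the long gene of its catalytic subunit, had 80.4, 79.3 and 86.6 CPM in Ctr and 135 and 122 CPM in Alt and was higher (log2 fold change 0.65, corrected 0.53). Of the other subunits 5 were lower, among them Polr2g (given above), Polr2e (18.1, 10.5 and 18.3 CPM in Ctr and 4.49 and 9.87 CPM in Alt) and Polr2c (21.2, 18.6 and 19.0 CPM in Ctr and 7.35 and 14.2 CPM in Alt). Polr2c has 5256 bases, and its log2 fold change was -0.86 before and -0.87 after correction. Polr2a, Polr2c, Polr2e and Polr2g kept these directions and their calls when length was corrected, and the lower Polr2d and Polr2h did not keep the call. Omitting Alt replicate 1 gave a log2 fold change of -0.66 for Polr2e and -0.46 for Polr2c, and the call was lost for both. Leaving out Alt replicate 2 gave -1.80 for Polr2e and -1.41 for Polr2c.

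Chromatin enzymes lost most of their calls with the correction. They are long, with a median of 12334 bases. Of 44 histone methyltransferases and chromatin remodellers 17 were higher (38.6%, against 8.54% over all genes tested) and 0 lower. Also higher with length corrected were 4 of the 17, 9.09% of the list against 5% over all genes. The median log2 fold change was 0.39 before and 0.03 after the correction. The 4 were Kmt2a, Kmt2e, Ep400 and Ino80. Kmt2e, of the family of histone H3 methyltransferases, had 67.3, 83.2 and 97.5 CPM in Ctr and 188 and 126 CPM in Alt (0.93, corrected 0.64), and Kmt2a, which methylates lysine at active promoters, 121, 143 and 174 CPM in Ctr and 327 and 199 CPM in Alt (0.85, corrected 0.36). The spectrins, ankyrins and related scaffolds under the plasma membrane behaved alike. Higher were 11 of 21 (52.4%) and, in both settings, 2 (9.52%), among them Epb41l4b. Their median turned from 0.50 to -0.02. Without Alt replicate 1 the medians of the chromatin and scaffold lists were 0.18 and 0.29, and without Alt replicate 2 0.65 and 0.68. Macf1, a linker of microtubules and actin with 32385 bases, had 255, 311 and 365 CPM in Ctr and 731 and 407 CPM in Alt, and its log2 fold change of 0.87 became 0.13 and was no longer called. Paxip1, the neighbour of the human transcript in the genome, had 35.6, 40.2 and 50.0 CPM in Ctr and 45.3 and 46.01 CPM in Alt and was not called. With Alt replicate 1 left out the log2 fold change was 0.45 for Kmt2a, 0.61 for Kmt2e and 0.39 for Macf1, and the call was lost for Macf1.

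**Figure D3:**
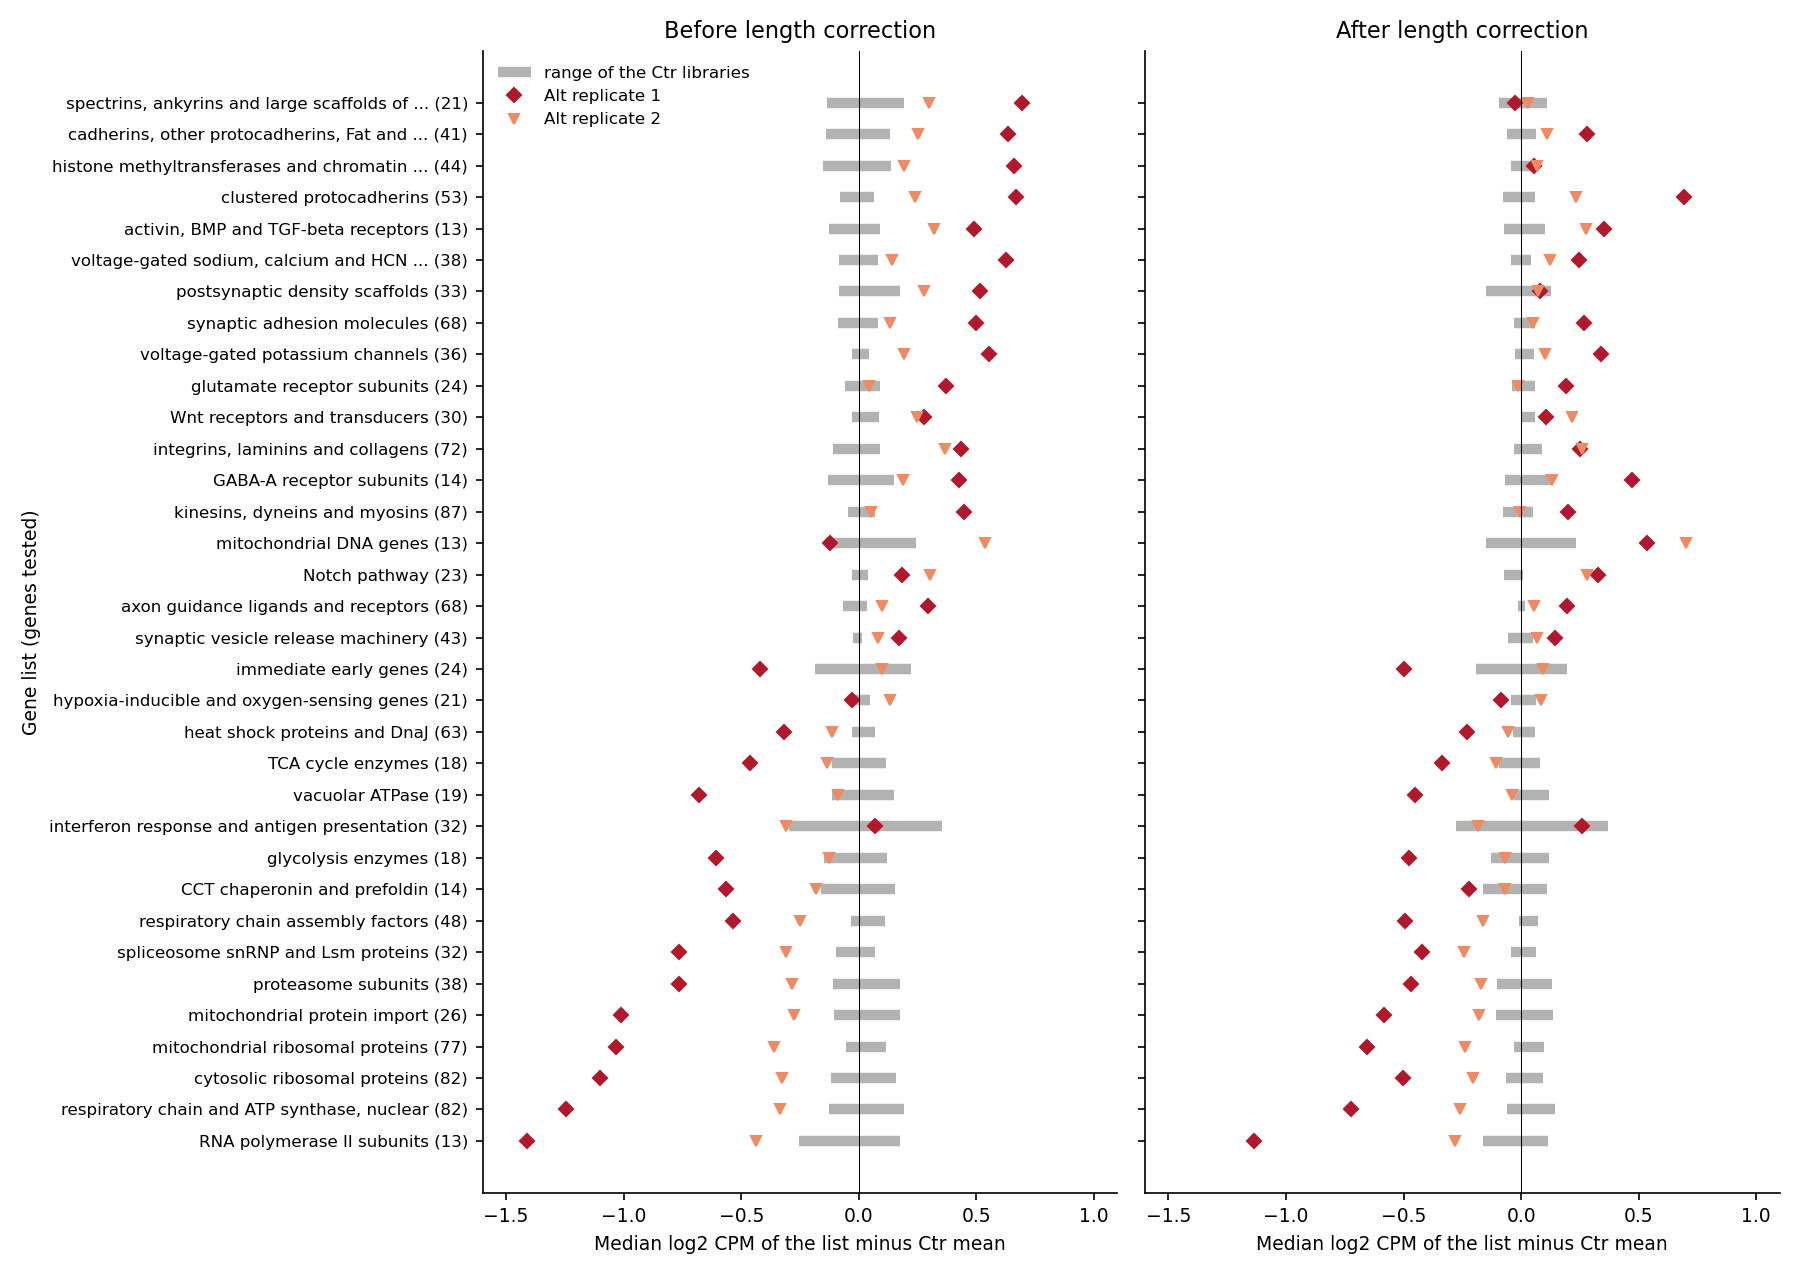
Median log2 CPM of each of 34 functional gene lists minus the Ctr mean, before (left) and after (right) the length correction, with the number of genes tested in brackets. Grey bars span the 3 Ctr libraries and symbols are the 2 Alt libraries. Lists of respiration, ribosomes and proteasome lie below the Ctr range in both Alt libraries after correction, while chromatin enzymes and membrane scaffolds lie at or within it.

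Without length correction, each list of adhesion genes held more higher than lower genes. Clustered protocadherins are cell surface proteins whose isoform combinations let a neuron recognize its own branches. Of 53 tested 11 were higher (20.8%, against 8.54% over all genes tested) and 0 lower. All 11 were also higher with length corrected (20.8%, against 5%). The median was 0.38, and 0.43 corrected. Of the 11, 7 were gamma genes (20 tested), 2 alpha (12 tested) and 2 beta (21 tested). Pcdhgb2 had 5.01, 7.04 and 5.81 CPM in Ctr and 13.0 and 13.0 CPM in Alt. Pcdhga3 had 6.70, 9.70 and 13.9 CPM in Ctr and 26.4 and 20.7 CPM in Alt. Pcdhgc3 had 28.2, 32.0 and 32.2 CPM in Ctr and 51.0 and 46.7 CPM in Alt. Pcdhgc5, the most abundant, had 77.6, 85.8 and 82.7 CPM in Ctr and 97.9 and 73.4 CPM in Alt and was not called. The alpha and the gamma genes share constant exons within their cluster, so that counts of single isoforms are uncertain, and without Alt replicate 1 the median was 0.17, without Alt replicate 2 0.58.

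Of 41 cadherins, other protocadherins and Fat and Celsr genes 13 were higher (31.7%) and 1 lower (2.44%). In both settings these were 8 (19.5%) and 1 (2.44%). Over all genes tested the shares were 8.54% and 9.26%, and 5% and 5.59% in both settings. Celsr1, a cadherin of planar cell polarity, had 9.53, 6.84 and 14.0 CPM in Ctr and 38.4 and 20.2 CPM in Alt (1.53, corrected 1.18), and Fat1, a giant cadherin, 27.3, 40.5 and 55.6 CPM in Ctr and 107 and 67.6 CPM in Alt. The lower gene was Pcdh8, an activity-regulated protocadherin (33.8, 35.2 and 46.3 CPM in Ctr and 19.3 and 30.9 CPM in Alt). Of 68 synaptic adhesion molecules 23 were higher (33.8%) and 0 lower, and 8 were higher in both settings (11.8%). With length corrected 8 were higher and 3 lower. The median was 0.31, 0.19 corrected and 0.12 and 0.48 without Alt replicates 1 and 2 in turn. Cntnap5a, a relative of Cntnap3, had 31.0, 41.2 and 42.0 CPM in Ctr and 68.5 and 65.0 CPM in Alt, and Igsf9b, an adhesion molecule of inhibitory synapses, 56.1, 78.5 and 72.3 CPM in Ctr and 184 and 91.4 CPM in Alt. Clstn1, the most abundant, had 1276, 1189 and 1238 CPM in Ctr and 1221 and 1319 CPM in Alt with no gap between the groups. Of the contactin-associated proteins, Cntnap3, Cntnap5a and Cntnap5b were higher in both settings. When Alt replicate 1 was omitted, the log2 fold change was 0.99 for Celsr1, 0.72 for Fat1 and 0.41 for Igsf9b, and the call was lost for Igsf9b.

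In the extracellular matrix and its receptors 14 of 72 integrin, laminin and collagen genes were higher (19.4%, against 8.54% over all genes tested). Lower were 2, also in both settings. Higher in both settings were 6 (8.33%, against 5%), and the higher genes include basement membrane components. Lamb2, the laminin beta 2 chain, had 34.4, 39.0 and 40.0 CPM in Ctr and 68.3 and 58.6 CPM in Alt and Lama5 8.59, 12.1 and 14.7 CPM in Ctr and 35.9 and 16.6 CPM in Alt, where Alt replicate 2 was close to the highest Ctr library. Among 68 axon guidance genes 13 were higher (19.1%) and 1 lower, and in both settings 4 were higher (5.88%, near the 5% over all genes tested) and 1 lower. With length corrected 5 of the 68 were higher and 5 lower. Plxna4, a semaphorin co-receptor, had 90.7, 101.1 and 133 CPM in Ctr and 228 and 151 CPM in Alt, and Epha6, an ephrin receptor, 8.54, 11.1 and 22.4 CPM in Ctr and 44.5 and 26.9 CPM in Alt. Neo1, a receptor of netrin and RGM ligands, had 99.9, 111 and 121 CPM in Ctr and 196 and 149 CPM in Alt. In the absence of Alt replicate 1 the log2 fold change was 0.49 for Lama5, 0.48 for Plxna4 and 0.43 for Neo1, and the call was lost for Lama5.

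Receptors of developmental signalling bind secreted ligands or ligands of neighbouring cells. Of 13 receptors for activin, BMP and TGF-beta 6 were higher (46.2%, against 8.54% over all genes tested) and 0 lower. Higher in both settings were 4 of them (30.8%, against 5%). The median was 0.36, 0.27 corrected and 0.31 and 0.47 without Alt replicates 1 and 2 in turn. Acvr1c, a type I receptor of activin and Nodal, had 39.3, 55.4 and 57.2 CPM in Ctr and 156 and 75.6 CPM in Alt, and Bmpr2, the type II receptor of BMPs, 399.9, 539.5 and 448 CPM in Ctr and 974 and 664 CPM in Alt. Acvr2b, the type II activin receptor, had 2.43, 2.22 and 3.90 CPM in Ctr and 11.4 and 6.75 CPM in Alt, a difference of 1.66 on the log2 scale that was 1.81 with length corrected. Of 23 Notch genes 7 were higher (30.4%) and 0 lower, and 5 were higher in both settings (21.7%). Notch1 had 27.1, 33.3 and 43.2 CPM in Ctr and 78.0 and 57.2 CPM in Alt. Mib1, the ubiquitin ligase that activates Notch ligands, had 229.5, 269 and 260.1 CPM in Ctr and 483 and 342 CPM in Alt. The Notch median was 0.18, 0.31 with the correction and 0.30 and 0.18 without Alt replicates 1 and 2 in turn. Of 30 Wnt genes 4 were higher (13.3%, against 8.54%) and 0 lower, and 3 were higher in both settings (10%, against 5%). Among them was Apc, whose product drives degradation of beta-catenin (378, 478 and 551 CPM in Ctr and 1234 and 701 CPM in Alt). Ctnnb1, beta-catenin itself, had 362, 336 and 354 CPM in Ctr and 357 and 349.9 CPM in Alt. Leaving out Alt replicate 1 gave a log2 fold change of 0.58 for Acvr1c, 0.53 for Bmpr2, 0.44 for Mib1 and 0.58 for Apc.

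Glutamate receptors carry fast excitation at cortical synapses and tune its strength. Of 24 glutamate receptor subunits 7 were higher (29.2%, against 8.54% over all genes tested) and 0 lower. Higher in both settings were 4 (16.7%, against 5%): Grin2a, Grin2b, Grin2c and Grm3. Grin2b, the NMDA receptor subunit that prevails early in life, had 269, 378 and 501 CPM in Ctr and 1219 and 664 CPM in Alt, and Grin2a, the one that prevails later, 175, 182 and 204.9 CPM in Ctr and 444 and 277 CPM in Alt. Their log2 fold changes of 1.30 and 0.94 were 0.66 and 0.42 with length corrected, and 0.80 and 0.57 without Alt replicate 1. Grin2c, with 5037 bases against 24842 in Grin2b, kept 0.63 of 0.62 (53.5, 52.9 and 59.3 CPM in Ctr and 91.2 and 78.6 CPM in Alt). The AMPA receptor subunits Gria1 (300.7, 297 and 302 CPM in Ctr and 418 and 317 CPM in Alt) and Gria4 (91.3, 101.2 and 89.8 CPM in Ctr and 112 and 103 CPM in Alt) were not called, and Gria2 (718, 886 and 752 CPM in Ctr and 915 and 749.7 CPM in Alt) overlapped with Ctr and was called lower after correction (log2 fold change 0.08, corrected -0.36).

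Inhibition by GABA runs through receptors built from several subunits. Of 14 GABA-A receptor subunits 4 were higher (28.6%, against 8.54% over all genes tested) and 0 lower. All 4 were also higher with the correction (28.6%, against 5%), among them Gabrb1, Gabrb2 and Gabrg3. Gabrb1 had 196, 244 and 270.0 CPM in Ctr and 588 and 312 CPM in Alt. Gabrg3 had 41.7, 49.0 and 48.4 CPM in Ctr and 104 and 71.6 CPM in Alt. Gabrb2, of the most common receptors of the adult cortex, had 72.3, 127 and 162 CPM in Ctr and 343 and 193 CPM in Alt. Its Ctr libraries were widely spread and Alt replicate 2 lay just above them, at a log2 fold change of 1.15 (standard error 0.31, FDR 0.121 in edgeR's quasi-likelihood test), 1.06 corrected and 0.68 without Alt replicate 1. Gabra3 (209.7, 226 and 246 CPM in Ctr and 274 and 268 CPM in Alt) was not called, and with length corrected it was called higher (0.38). Omitting Alt replicate 1 gave a log2 fold change of 0.40 for Gabrb1, and the call was lost.

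Of 33 postsynaptic scaffolds 16 were higher (48.5%, against 8.54% over all genes tested) and 0 lower. Higher in both settings were 7 (21.2%, against 5%). The median was 0.33 before and 0.09 after correction and 0.25 and 0.50 without Alt replicates 1 and 2 in turn. Shank1, a master scaffold of excitatory synapses, had 498, 486 and 759 CPM in Ctr and 1564 and 825 CPM in Alt, Iqsec3, an exchange factor at inhibitory synapses, 134, 154 and 172 CPM in Ctr and 311 and 223 CPM in Alt, and Cnksr2 250.2, 294 and 351 CPM in Ctr and 584 and 401 CPM in Alt. Nrgn (neurogranin), short and the most abundant, had 1056, 725 and 974 CPM in Ctr and 404 and 838 CPM in Alt and was not called. In the release machinery of 43 genes 8 were higher (18.6%, against 8.54% over all genes tested) and 1 lower, and in both settings 3 were higher (6.98%, near the 5% over all genes) and 1 lower. Cplx2, a complexin that clamps vesicle fusion, had 979, 1119 and 1056 CPM in Ctr and 1768 and 1328 CPM in Alt and kept 0.58 of 0.56, whereas the giant active zone proteins Pclo (281, 319.8 and 404 CPM in Ctr and 795 and 449 CPM in Alt) and Bsn (451, 477 and 658 CPM in Ctr and 1089.6 and 685 CPM in Alt) were no longer called with the correction. Snap25, the most abundant, had 2416, 2119 and 1951 CPM in Ctr and 1595 and 1965 CPM in Alt and was called lower after the correction only (-0.38). With Alt replicate 1 left out the log2 fold change was 0.51 for Shank1, 0.43 for Cnksr2, 0.34 for Cplx2, 0.42 for Pclo and 0.37 for Bsn, and the call was lost for Pclo and Bsn.

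Voltage-gated potassium channels, which set the repolarization of neurons, kept most of their higher genes when length was corrected. Of 36 tested 15 were higher (41.7%) and 1 lower (2.78%), and 10 (27.8%) and 1 (2.78%) in both settings. Over all genes tested 8.54% were higher and 9.26% lower, and 5% and 5.59% in both settings. Kcng3, a modifier subunit, had 1.34, 1.08 and 3.11 CPM in Ctr and 11.1 and 7.25 CPM in Alt, the largest log2 fold change of the list at 2.30 (standard error 0.48). Kcnh5, of the ether-a-go-go family, had 8.74, 10.1 and 9.15 CPM in Ctr and 27.8 and 16.1 CPM in Alt. Others called in both settings were Kcna1, Kcna2, Kcna3, Kcnh7, Kcnq3 and Kcnq5, and the lower one was Kcnf1 (138, 124 and 121 CPM in Ctr and 89.6 and 97.4 CPM in Alt). Sodium, calcium and HCN channels had 10 higher genes of 38 and 1 lower (26.3% and 2.63%). Of these Scn8a alone, the sodium channel of axon initial segments, was also higher with the correction. That is 2.63% of the list, below the 5% over all genes tested. Scn8a had 278, 296 and 362 CPM in Ctr and 682 and 425 CPM in Alt (0.83, corrected 0.36). When Alt replicate 1 was omitted, the log2 fold change was 0.79 for Kcnh5 and 0.45 for Scn8a.

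**Figure D4:**
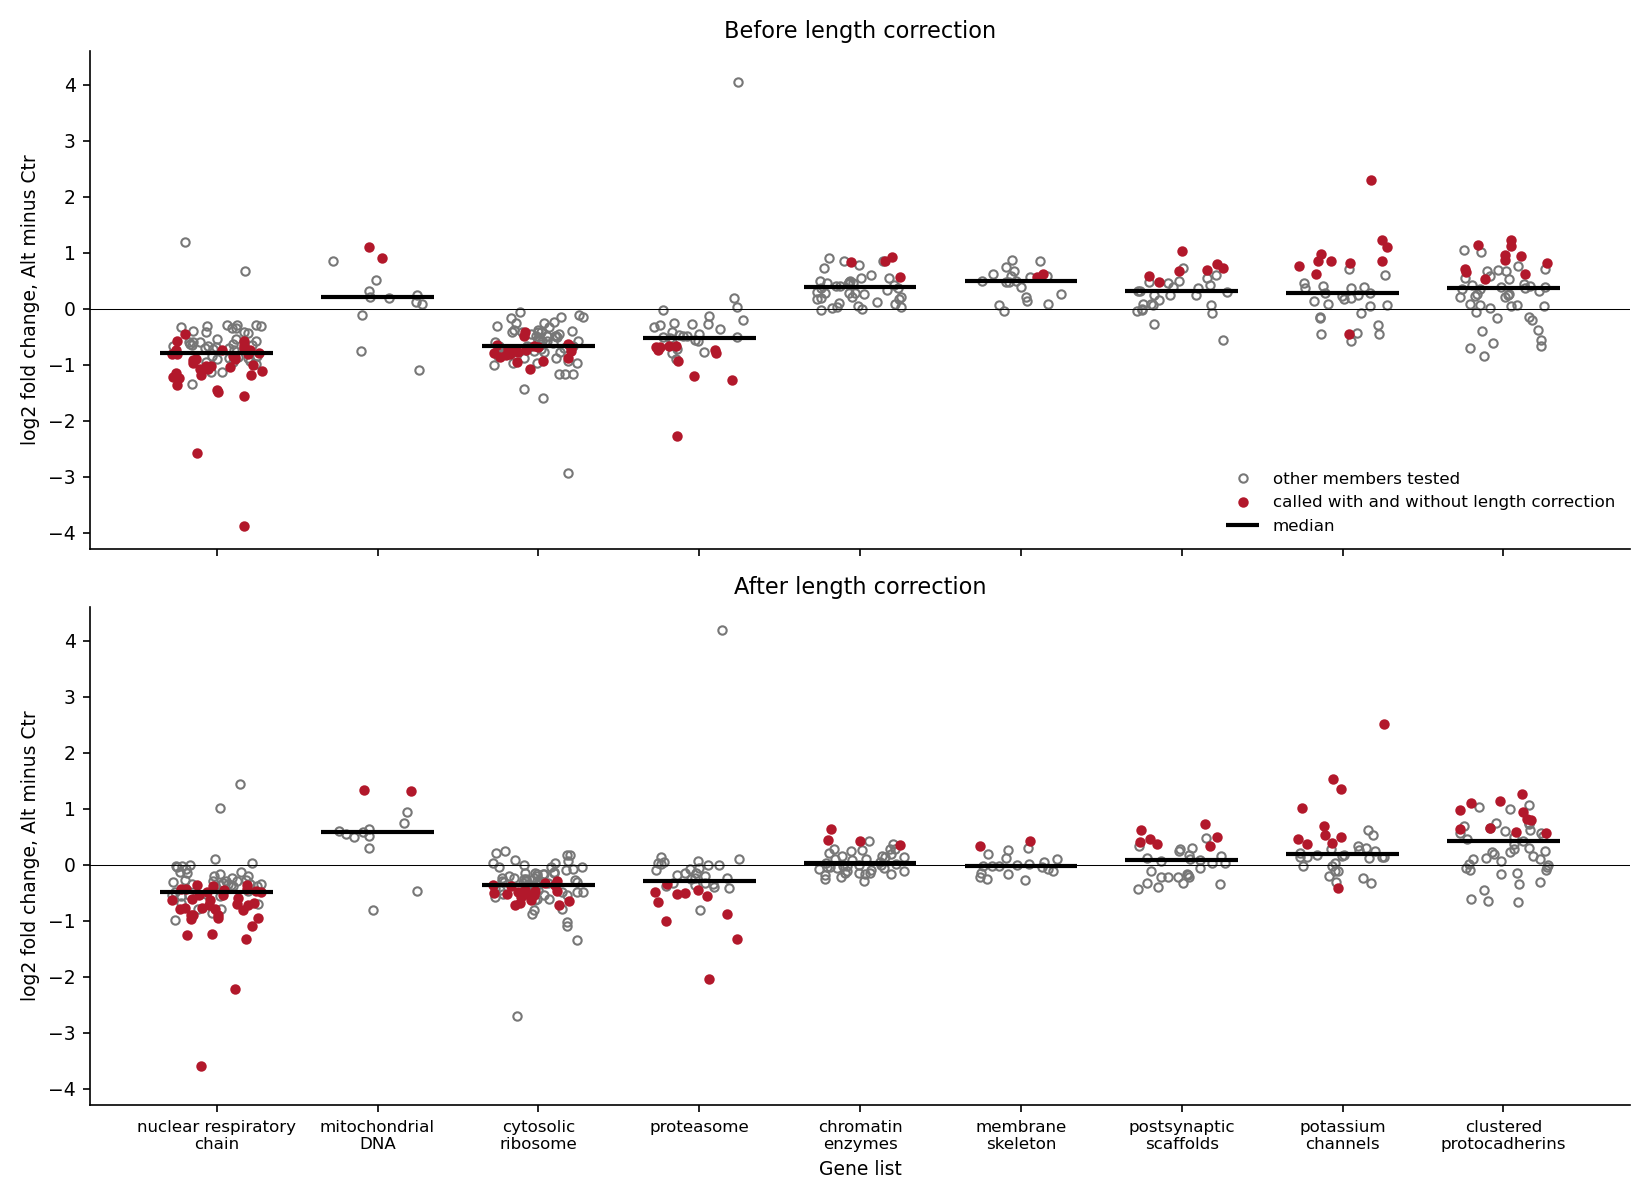
Log2 fold change (Alt minus Ctr) of every tested member of 9 gene lists, before (top) and after (bottom) the length correction. Filled points are members called with and without the correction, open points are the others, and black bars are medians; respiratory genes have a median of -0.80 before and -0.48 after, and membrane skeleton genes of 0.50 before and -0.02 after.

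The genes that the study itself singles out include Cntnap3, a contactin-associated adhesion protein. Its 6386 exon bases lie on chromosome 13, 64883996 to 65051769 on the minus strand as the table lists it, and it had 4.42, 2.56 and 3.21 CPM in Ctr and 7.67 and 8.53 CPM in Alt. Alt replicate 2 was the higher of the Alt libraries: the log2 fold change was 1.25 with all libraries (standard error 0.35, FDR 0.124 in edgeR's quasi-likelihood test), 1.33 without Alt replicate 1 and 1.17 with length corrected. Ttc28, a tetratricopeptide repeat protein, had 19.96, 17.6 and 25.7 CPM in Ctr and 54.0 and 40.4 CPM in Alt, with 1.16, 0.94 and 0.81 in the same order. These genes were picked in the study on the same libraries, so they are no independent evidence. Zgpat, a zinc finger repressor that the study examined, had 14.4, 21.8 and 17.3 CPM in Ctr and 16.6 and 13.4 CPM in Alt and was not called (log2 fold change -0.25).

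A DNA motif known for the human protein ZGPAT was searched in promoters from RefSeq (build GRCm38.p6, which is not the build of the deposited coordinates), in windows of 300 bases, 250 before and 50 after each start, on both strands. The 4 words GGAGGAGA, GGAGGAAA, GGAGAAGA and GGAGAAAA were counted, and overlapping matches were each kept. Of 11440 tested protein-coding genes with a promoter there, 14.3% had a match, against 17.2% of 1042 higher genes and 12.8% of 1220 lower genes, and 17.2% of 547 and 13.5% of 733 for those called in both settings. Of all 27025 RefSeq genes with a promoter, 13.5% had a match. Counted per promoter, matches were in 11.9% of the 14689 promoters of tested genes, in 13.8% for higher and 11.1% for lower genes, and in 11.9% of all 32851 promoters. These shares are descriptions, and a match is no binding site. The 250 bases before the start of 2 genes are shown because the study examined the human CNTNAP3 promoter and because Gabrb2 is a called receptor gene with matches. The Cntnap3 window held no match, which says only that these letters are not in this window. The middle one of 3 Gabrb2 promoters held 2 overlapping matches, read on the minus strand, with 54 and 51 bases between their ends and the start, and the capitals mark them.

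Cntnap3, chr13:64903889-64904138, minus strand: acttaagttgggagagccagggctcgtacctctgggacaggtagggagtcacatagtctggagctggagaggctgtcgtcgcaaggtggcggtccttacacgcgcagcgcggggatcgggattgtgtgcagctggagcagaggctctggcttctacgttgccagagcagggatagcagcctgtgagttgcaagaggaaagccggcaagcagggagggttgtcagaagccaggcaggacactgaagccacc
Gabrb2, chr11:42420524-42420773, plus strand: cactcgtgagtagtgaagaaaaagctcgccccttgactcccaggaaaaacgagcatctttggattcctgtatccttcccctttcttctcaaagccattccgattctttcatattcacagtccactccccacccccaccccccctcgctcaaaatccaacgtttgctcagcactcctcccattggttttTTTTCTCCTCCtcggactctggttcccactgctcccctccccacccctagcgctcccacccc

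Motor proteins, which carry cargo along microtubules and actin, had 16 higher genes of 87 (18.4%, against 8.54% over all genes tested) and 7 lower (8.05%, against 9.26%). In both settings 8 were higher (9.2%, against 5%) and 5 lower (5.75%, against 5.59%). The median of the list was 0.22, 0.14 corrected and 0.04 and 0.42 without Alt replicates 1 and 2 in turn. Dync1h1, the heavy chain of cytoplasmic dynein, had 559.7, 554 and 722 CPM in Ctr and 1449.6 and 832 CPM in Alt, and Kif1a, the carrier of synaptic vesicle precursors, 992, 991 and 1188 CPM in Ctr and 1914 and 1349.5 CPM in Alt, while Dynll1, a light chain with 3890 bases, had 146, 98.2 and 123.4 CPM in Ctr and 50.5 and 86.4 CPM in Alt. The lower genes in both settings were Dynll1, Dync1i2, the dynactin subunits Dctn2 and Dctn3, and Kif7. In the absence of Alt replicate 1 the log2 fold change was 0.44 for Dync1h1, 0.35 for Kif1a and -0.51 for Dynll1. Without Alt replicate 2 it was -1.28 for Dynll1.

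Of 24 immediate early genes, which neurons switch on within minutes of activity, 2 were lower (8.33%) and 1 higher (4.17%), shares no larger than the 9.26% and 8.54% over all genes tested. With length corrected 2 were lower and 4 higher. Arc, which removes AMPA receptors from synapses, had 308, 242 and 167 CPM in Ctr and 69.1 and 117 CPM in Alt, a log2 fold change of -1.36 (standard error 0.27; -1.16 corrected). Npas4, a transcription factor that shapes inhibition, had 30.9, 20.6 and 23.7 CPM in Ctr and 5.53 and 11.6 CPM in Alt (-1.55, corrected -1.46). Egr1, the most abundant, had 556, 435 and 395 CPM in Ctr and 218 and 408 CPM in Alt and was not called. The median of the list was -0.09, with 0.06 and -0.44 without Alt replicates 1 and 2 in turn. Klf4 was higher, with 16.6, 9.94 and 10.6 CPM in Ctr and 17.3 and 33.7 CPM in Alt. Of 32 interferon and antigen presentation genes 4 were lower (12.5%) and 1 higher, and in both settings 2 were lower (6.25%, near the 5.59% over all genes tested) and 1 higher, with Irf9 at 11.4, 16.8 and 9.89 CPM in Ctr and 5.72 and 7.42 CPM in Alt and Ifit2 at 8.84, 15.2 and 10.96 CPM in Ctr and 19.9 and 17.7 CPM in Alt. Of 21 oxygen-sensing genes 4 were higher (19%) and 2 lower (9.52%), against 8.54% and 9.26% over all genes tested. Epas1 and Hif3a were higher in both settings (9.52%, against 5%). Hif3a had 6.55, 6.50 and 4.04 CPM in Ctr and 17.7 and 7.14 CPM in Alt. Leaving out Alt replicate 1 gave a log2 fold change of 0.61 for Ifit2 and 0.33 for Hif3a, and the call was lost for both. With Alt replicate 2 left out it was 0.48 for Klf4, and the call was lost. With Ctr replicate 1 left out the value was 0.52 for Ifit2, and the call was lost. With Ctr replicate 3 left out the value was 0.65 for Ifit2, and the call was lost.

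Calls among markers of cell types are read against 8.54% higher and 9.26% lower over all genes tested. For calls in both settings the shares over all genes were 5% and 5.59%. Of 13 endothelial markers 4 were higher (30.8%) and 0 lower, and 2 were higher in both settings (15.4%), Vwf and Abcb1a. Abcb1a, the drug exporter of the blood-brain barrier, had 56.4, 73.6 and 70.0 CPM in Ctr and 111 and 91.0 CPM in Alt. Without length correction the summed level of the 13 was 480.8 to 588.6 CPM in Ctr and 745.2 and 779.6 CPM in Alt. Of 8 markers of leptomeningeal fibroblasts 3 were higher (37.5%) and 0 lower. Col1a1 alone, which is also in the collagen list, was higher in both settings (12.5%). The sum of the 8, also uncorrected, was 144.8 to 177.4 CPM in Ctr and 239.0 and 224.2 CPM in Alt. Cldn5, the tight junction protein of endothelium, however overlapped (25.9, 34.4 and 42.1 CPM in Ctr and 19.4 and 60.1 CPM in Alt). The matrix genes Col4a5 and Lamb2 and the endothelial gene Ptprb, given above, were also higher. The part of vessel and meninges cells in those differences was not tested. Of 9 mural cell markers 1 was higher (11.1%, near the 8.54% over all genes tested). It was Cspg4, with 15.5, 15.8 and 23.8 CPM in Ctr and 38.1 and 37.3 CPM in Alt. Cspg4 is also among the 3 higher of 6 markers of oligodendrocyte precursors (50%), and alone of these was higher in both settings (16.7%).

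Among neurons, 3 of 7 interneuron markers were lower (42.9%, against 9.26% over all genes tested) and 0 higher. Sst, the peptide somatostatin of a main interneuron class, had 54.8, 46.9 and 70.8 CPM in Ctr and 18.0 and 33.6 CPM in Alt (-1.15, corrected -0.81). Pvalb, the calcium buffer of fast-spiking cells, had 5.71, 5.32 and 4.60 CPM in Ctr and 2.21 and 3.57 CPM in Alt. Vip, a peptide of another class, had 29.7, 32.0 and 24.2 CPM in Ctr and 13.6 and 24.1 CPM in Alt. Of the 3, Sst alone was also lower with length corrected (14.3% of the list, against 5.59% over all genes tested). Of 6 excitatory markers 2 were higher (33.3%, Slc17a7 and Camk2a) and 1 lower (16.7%, Neurod6). Neurod6 had 124, 92.0 and 104 CPM in Ctr and 53.5 and 82.3 CPM in Alt. Of 6 pan-neuronal markers 1 was higher (16.7%, Map2) and 1 lower (16.7%, Tubb3), neither of these in both settings. In lists this short 1 call is already a larger share than the 8.54% higher and 9.26% lower over all genes tested. The call of Slc17a7 was lost when Alt replicate 1 or any of the Ctr libraries was left out, with log2 fold changes of 0.27 to 0.38. Camk2a lost its call without Ctr replicate 1 (0.30) and without Ctr replicate 2 (0.27). Map2 lost it without Ctr replicate 1 (0.42) and Alt replicate 1 (0.21), and Tubb3 without each Ctr library (-0.41 to -0.37) and without Alt replicate 1 (-0.17). Of 8 astrocyte markers 1 was higher (12.5%, also in both settings) and 2 were lower (25%, and 0 in both settings). The higher gene was Slc1a2, the main glutamate transporter (3484, 4827 and 4476 CPM in Ctr and 9528 and 5964 CPM in Alt). Of 9 microglia markers the complement genes C1qa, C1qb and C1qc were lower (33.3%) and Cx3cr1 was higher (11.1%). C1qa had 19.5, 18.5 and 19.3 CPM in Ctr and 7.09 and 10.8 CPM in Alt. Cx3cr1 had 65.2, 65.9 and 80.9 CPM in Ctr and 87.9 and 94.1 CPM in Alt. C1qa and Cx3cr1 were called in both settings (11.1% each). Oligodendrocyte markers had 2 lower genes of 10 (20%), Mbp and Mag, and Mbp was lower in both settings (10%). Without Ctr replicate 2 the calls of Mag (-0.34), C1qb (-0.62) and C1qc (-0.55) were lost, and so were they without Alt replicate 1 (-0.34, -0.40 and -0.37). Omitting Alt replicate 1 gave a log2 fold change of -0.54 for Pvalb, -0.24 for Vip, -0.37 for Neurod6 and 0.49 for Slc1a2, and the call was lost for Pvalb, Vip and Neurod6. When Alt replicate 2 was omitted, it was -1.07 for Vip, -0.998 for Neurod6 and 0.31 for Cx3cr1, and the call was lost for Cx3cr1. Without Ctr replicate 1 the value was -0.77 for Pvalb, -0.57 for Vip and 0.31 for Cx3cr1, and the call was lost for all of them. Without Ctr replicate 2 the value was -0.83 for Pvalb, -0.51 for Vip and 0.32 for Cx3cr1, and the call was lost for all of them.

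Of 9 reactive glia markers 2 were lower (22.2%, against 9.26% over all genes tested), both at low counts. Lgals3 had 14 counts in each Ctr library and 0 in both Alt libraries, at least 3.48-fold lower against a floor of 3 counts per library, and Cst7 had 39, 31 and 12 counts in Ctr and 0 and 3 in Alt. Gfap, the filament protein that reactive astrocytes raise, had 151, 212 and 116 CPM in Ctr and 136 and 159 CPM in Alt and was not called. Of 8 striatal neuron markers, which a dissection beyond the cortex could add, 1 was lower (12.5%, near the 9.26% over all genes tested). It was Penk, with 23.9, 17.2 and 15.4 CPM in Ctr and 6.11 and 12.3 CPM in Alt. Of 6 blood markers 1 was higher and 1 lower (16.7% each, against 8.54% and 9.26%). Of 3 choroid plexus or ependyma markers tested 0 were called. With Alt replicate 1 left out the log2 fold change was -0.62 for Penk, and the call was lost. Leaving out Alt replicate 2 gave -1.62 for Penk.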

How the data were processed

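RNA from mouse PFC (2 Alt, 2 Ref and 3 Ctr libraries) had been isolated with Trizol, poly(A)-selected and made into strand-marked TruSeq libraries, per the labels. The authors deposited raw read counts per gene and TPM values, which are those counts divided by gene length and scaled to a common sum. The processing notes name STAR and featureCounts, with no version, and the human build hg19, although gene identifiers and coordinates in the table are of mouse. The build of the table, the annotation and the strand setting are not given in the sources used here.

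Counts were tested with edgeR 4.0.16 (R 4.3.3). Genes passing filterByExpr by group (17254 of 55416) were scaled by TMM and fitted by quasi-likelihood with group means over all 7 libraries, with the contrast Alt minus Ctr and Benjamini-Hochberg adjustment. For the length correction a loess curve (span 0.3) on log2 gene length was removed from each library through offsets. Library totals were 16655697 to 20750857 counts, and counting error is larger for genes with few counts. TPM served only to name the most abundant member of a list. Log2 CPM used a prior count of 2. Alternatives were DESeq2 1.42.0, median-of-ratios factors, no low-count filter, a robust fit, protein-coding genes only, Alt and Ctr libraries only, a replicate block and leaving out each library. The procedure was tested on simulated data.

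Genes were named by rule. These were the 12 higher and 12 lower protein-coding genes with the smallest p and the 6 and 6 with the largest log2 fold change at a mean of at least 5 CPM over the 5 libraries, all called with and without length correction. Added were up to 4 called members of each list with the smallest p, its most abundant member and genes that the study measured. Other called members are named in places to complete a count and were chosen after their values were seen, as were the non-coding and liver genes. The comparison, lists and rules were chosen with earlier results of these data known. Promoters came from RefSeq and were matched by symbol, for 11440 of 14486 tested protein-coding symbols. Some genes that the rule names are not reported here.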

Additional observations from a re-analysis of the deposited data

How the results depend on the processing

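The 2 Alt and 3 Ctr libraries held 16655697 or more counts each, and the effect of depth was not tested. Leaving out 1 library at a time, the number of higher genes ran from 680 to 2695 and that of lower genes from 817 to 3546, the lowest without Alt replicate 1 and the highest without Alt replicate 2. Genes at an FDR of 0.05 then ran from 0 to 3451, genes past 2-fold from 592 to 3009, and the correlation with length from 0.25 to 0.35. An FDR of 0.05 was passed by 1484 genes without the low-count filter and 1123 with DESeq2. Without Alt replicate 1, 33.3% of the higher and 34.9% of the lower calls were kept. The cause of these shifts was not tested.

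The replicate numbers shared by Alt and Ctr make 2 pairs. Deviations of same-numbered Alt and Ctr libraries from their group means had correlations of -0.165 and -0.146, and with 2 Alt libraries the crossed values are the same with the sign reversed, so they add nothing. Same-numbered Ctr and Ref libraries had 0.106 and 0.13, and Alt and Ref -0.15. Neither the labels nor these values show that a number marks a shared source, and the pairing was not used. With a replicate block 1008 genes were higher and 956 lower, and with the block and length correction 862 and 871, of which 483 in all were past 2-fold.

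Alternatives chosen after seeing the data combined length correction with another choice. Without Alt replicate 1 it gave 606 higher and 747 lower genes and 6 at an FDR of 0.05. Without Alt replicate 2 it gave 2242, 2854 and 1969, with 2294 genes past 2-fold, and with DESeq2 522 at an adjusted p of 0.05.

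A median is said here to turn when its sign changed and its value with all libraries exceeded the spread between libraries of a group, and a gene when its sign changed and it was called in either setting. These were the turns. With length corrected the correlation with length was -0.016, and the medians were -0.017 for spectrins and scaffolds, -0.056 for astrocyte and 0.16 for blood markers, while Gria2 was -0.36. With the replicate block added, astrocyte, microglia and blood medians were -0.14, 0.066 and 0.19, Gria2 was -0.43 and Hbb-bs 0.024. With length corrected and Alt replicate 2 left out they were -0.15, 0.091 and 0.20, with -0.033 for spectrins and scaffolds, 0.049 for interferon genes, -0.42 for Gria2, -0.38 for Pcdh10 and 0.38 for Ephb6. With length corrected and Alt replicate 1 left out the medians were -0.037 for glutamate receptors, -0.021 for motor proteins, 0.080 for oxygen-sensing genes and 0.12 for striatal markers, with -0.023 for Map2 and 0.0043 for Tubb3. DESeq2 with length correction gave 0.012 for B2m, 0.0061 for Tubb3 and -0.33 for Gria2. Leaving out 1 library at a time, oxygen-sensing genes ran from -0.12 to 0.12, striatal markers from -0.65 to 0.029 and Cldn5 from -0.82 to 0.82, with the upper end of each without Alt replicate 1. Medians within that spread also changed sign. When a library was left out, these medians were taken over the genes that passed the low-count filter again, and those of the report over the genes tested with all libraries. With length corrected they were 0.020 for oligodendrocyte, 0.029 for pan-neuronal and 0.094 for choroid plexus markers, and with the block added 0.033 and 0.11 for the latter 2. Without Alt replicate 1 they were 0.062 for immediate early genes and 0.087 for pan-neuronal markers, without Alt replicate 2 -0.13 for mitochondrial DNA genes, 0.014 for oligodendrocyte and 0.29 for choroid plexus markers, and without Ctr replicate 2 -0.049 for excitatory, 0.060 for oligodendrocyte and 0.053 for choroid plexus markers. Without Ctr replicate 1 the pan-neuronal median was 0.0031. With length corrected as well, immediate early genes had 0.074 without Alt replicate 1, and excitatory, oligodendrocyte and choroid plexus markers had -0.075, 0.28 and 0.38 without Alt replicate 2. Over these alternatives the 48 list medians moved by less than the spread in 470 instances, moved further in 137 and turned in 17. The 231 named genes kept their side of the threshold in 3437 instances, lost it in 419, gained it in 59 and turned in 12.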

Other observations

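Several non-coding RNAs, chosen after their values were seen, were among the genes called. Of 18 mitochondrial tRNA genes tested 7 were higher and 0 lower, 4 of them also with length corrected, and their median log2 fold change was 0.66 (0.43 corrected). mt-Tl1, a leucine tRNA of mitochondria, had 23.2, 29.9 and 26.8 CPM in Ctr and 77.1 and 64.5 CPM in Alt, with the smallest p of all genes tested (log2 fold change 1.41, FDR 0.12 in edgeR's quasi-likelihood test). Libraries were poly(A)-selected. Malat1, an abundant nuclear RNA of speckles, had 76.8, 102.3 and 60.8 CPM in Ctr and 259.8 and 109.6 CPM in Alt, where Alt replicate 2 lay near the highest Ctr library. Neat1, the scaffold of paraspeckles, was lower at 2.93 and 6.53 CPM against 7.65, 10.5 and 9.38.

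Among transcripts of liver-type plasma proteins, some had counts in Alt that they lacked or nearly lacked in Ctr and others did not. Alb, serum albumin, had 6, 5 and 0 counts in Ctr and 82 and 206 in Alt. Apoa1, an apolipoprotein, had 0 counts in each Ctr library and 26 and 12 in Alt. Fga and Fgb, of fibrinogen, had 0 counts in each Ctr library, with 26 and 7 for Fga and 40 and 4 for Fgb in Alt. Ahsg had 0 and 21 counts in Alt and 0 in each Ctr library, and Apoa2 had 7, 0 and 5 counts in Ctr and 0 and 20 in Alt. Both thus had 0 counts in Alt replicate 1. Ttr had 0, 4 and 0 counts in Ctr and 0 and 1 in Alt, and Serpina1a 0, 6 and 0 against 0 and 2. Trf, transferrin, which oligodendrocytes also make, had 3198, 4657 and 3390 counts in Ctr and 2931 and 2552 in Alt. Where these reads came from was not tested.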
